A study of Mus musculus with 12 samples.

Results

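*Myh3*, *Myh8*, *Myl4* and *Actc1* encode contractile proteins of developing striated muscle, and their mRNAs were followed in the tibialis anterior (TA) muscle of mice after forced expression of *FRAIL1*, a human long non-coding RNA. The 4 genes were chosen by name, as embryonic and neonatal isoforms of the contractile apparatus, among 27179 genes counted, and with earlier results of these data known. All 4 were among the 15502 genes with enough counts to be tested. The mice were WT males of the C57BL/6N strain, delivered at an age of 6 to 8 weeks and used within 2 weeks. In each of 6 mice, 1 TA muscle received 10 μg of empty plasmid (pcDNA3, Control) and the other received 10 μg of plasmid with full-length human *FRAIL1* behind a CMV promoter (*FRAIL1*). Muscles of both groups were injected with hyaluronidase and electroporated, and both were removed on day 7, so no untreated muscle stands beside them. RNA came from whole muscles, in which transfected and untransfected fibers and the cells between them are summed. Fewer cells of a type and less RNA per cell cannot be told apart in such samples. The table holds mouse genes, and the level of the human transcript was not analysed here.

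Muscle fibers pull with myosin and actin, and both proteins come in isoforms that replace each other as a muscle matures. *Myh3* encodes the embryonic and *Myh8* the neonatal (perinatal) myosin heavy chain, which are used in fetal fibers and give way after birth to the adult fast and slow heavy chains. *Myl4* encodes the essential light chain of embryonic muscle and of the cardiac atria. *Actc1* encodes cardiac α-actin, the main α-actin of the heart, which is also abundant in fetal skeletal muscle before skeletal α-actin (*Acta1*) takes over. In adult limb muscle these genes are known to be re-expressed in regenerating fibers.

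In the mm10 genome, the heavy chain genes *Myh3* (NCBI Gene ID 17883, chr11:67078273-67102291, plus strand) and *Myh8* (17885, chr11:67277124-67308634, plus strand) lie in 1 cluster with the adult heavy chain genes, in the order *Myh3*, *Myh2*, *Myh1*, *Myh4*, *Myh8*, *Myh13*. *Myl4* (17896, chr11:104546017-104587215, plus strand) lies farther along the same chromosome, and *Actc1* (11464, chr2:114047282-114052875, minus strand) lies on another. Their longest coding transcripts have 41, 40, 8 and 7 exons. Because families of near copies can share reads, the coding sequences were compared. *Actc1* and *Acta1* were identical at 86.3% of coding bases, with 29 bases as the longest identical run. *Myh8* and *Myh4* were identical at 87.7%, with a longest run of 164 bases. None of the 150-base windows of *Actc1* or *Myl4* occurred in another transcript, and 0.306% of those of *Myh3* and 1.6% of those of *Myh8* did, in other heavy chains of the cluster. To show what separates the isoforms in the reads, 60 coding bases of *Actc1* and *Acta1* (coding bases 436 to 495) and of *Myh8* and *Myh4* (coding bases 1831 to 1890) follow, with the 15 and 23 bases that differ within a pair in capitals.
Actc1: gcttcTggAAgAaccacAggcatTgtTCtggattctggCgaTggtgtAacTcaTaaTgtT
Acta1: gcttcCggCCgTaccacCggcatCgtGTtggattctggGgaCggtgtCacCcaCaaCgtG
Myh8: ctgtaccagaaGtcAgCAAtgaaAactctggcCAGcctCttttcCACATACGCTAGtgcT
Myh4: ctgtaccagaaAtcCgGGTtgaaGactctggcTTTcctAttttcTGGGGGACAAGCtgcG

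The promoters were read for short motifs of muscle genes, since the mean of each member was higher in *FRAIL1* than in Control muscles, though *Actc1* followed the other 3 less closely. RefSeq windows (GRCm38.p6) around an annotated start are printed for *Myh3* (chr11:67078050-67078349, plus strand), *Myh8* (chr11:67276874-67277173, plus strand) and *Actc1* (chr2:114052826-114053125, minus strand). Capitals mark matches, on either strand, to the E-box (CANNTG), the TATA box (TATAAA), the MEF2 site or the CArG box, and positions are counted from the start. In *Myh3* an E-box began at -191 and a TATA box at -29. In *Myh8* a MEF2 site began at -99, with a TATA box on the opposite strand inside it at -96, and E-boxes began at -32 and 7. In *Actc1* a CArG box, the element bound by serum response factor, began at -47, an E-box at 9 and a TATA box at 34. The *Myl4* window (chr11:104550413-104550712, plus strand), of a start inside the annotated gene, held none of these motifs. The MCAT motif (CATTCC) was in none of the 4 windows. Of 32851 promoters of the same length, 72.3% held an E-box, 13.6% a TATA box, 14.7% an MCAT motif, 3.19% a MEF2 site and 1.63% a CArG box. These matches describe letters and were not tested as binding sites.
Myh3 promoter: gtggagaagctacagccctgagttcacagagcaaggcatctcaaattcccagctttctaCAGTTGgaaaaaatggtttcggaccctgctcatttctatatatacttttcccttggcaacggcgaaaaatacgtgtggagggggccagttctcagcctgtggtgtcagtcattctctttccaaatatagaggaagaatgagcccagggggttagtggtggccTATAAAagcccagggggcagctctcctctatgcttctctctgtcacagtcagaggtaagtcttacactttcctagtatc
Myh8 promoter: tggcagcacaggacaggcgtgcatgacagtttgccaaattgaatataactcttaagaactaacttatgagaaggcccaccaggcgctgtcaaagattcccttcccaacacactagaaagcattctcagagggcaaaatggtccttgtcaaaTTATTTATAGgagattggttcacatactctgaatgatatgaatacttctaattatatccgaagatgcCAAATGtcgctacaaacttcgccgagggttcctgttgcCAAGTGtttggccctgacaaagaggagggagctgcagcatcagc
Actc1 promoter: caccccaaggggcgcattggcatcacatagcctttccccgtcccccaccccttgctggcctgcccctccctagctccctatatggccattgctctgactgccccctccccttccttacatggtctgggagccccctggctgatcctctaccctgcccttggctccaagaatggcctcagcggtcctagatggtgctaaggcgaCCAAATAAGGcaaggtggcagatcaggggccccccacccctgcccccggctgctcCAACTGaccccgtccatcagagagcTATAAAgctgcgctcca

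Between 44848322 and 60527385 reads were assigned to genes per muscle, with medians of 50866193.5 in Control and 48532028 in *FRAIL1* muscles, so that even *Myl4*, the member with the fewest reads, had 1162 or more in every muscle. *FRAIL1* muscle 5 stood apart from the other libraries. On the first principal component (32.4% of variance) it lay at 59.5 and the next *FRAIL1* muscle at 25.8. The Control muscles lay between -25.9 and -11, and *FRAIL1* muscles 3 (-5.92) and 2 (1.12) were the *FRAIL1* muscles nearest to them. Muscle 5 of *FRAIL1* also had the highest scaling factor (1.19, others 0.935 to 1.07) and the lowest share of reads from mitochondrial genes (6.58%, others 7.54% to 11.4%). Log2 fold changes, shares and coefficients of variation of the 4 genes are given with and without it. So are list sums and medians that moved by more than 1.5 times, and calls of named genes that changed. Other values, such as CPM per kilobase and correlations, include it. The 10 myofiber markers were all detected, with a summed level of 130540 to 212150 CPM (counts scaled to library size and, by TMM, to library composition).

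Both developmental heavy chains rose with *FRAIL1*. *Myh3* ranged from 41.6 to 62.6 CPM (median 50.0) in Control and from 105 to 541 CPM (median 199) in *FRAIL1* muscles. The groups did not overlap, and every *FRAIL1* muscle lay above every Control muscle, with muscle 5 far above the rest and muscles 2 and 3 lowest. The log2 fold change of *Myh3* was 2.16 (standard error 0.373, n = 6 per group, adjusted p = 0.0124 in a quasi-likelihood fit with edgeR, Benjamini-Hochberg over all genes tested), a 4.47-fold rise. Without *FRAIL1* muscle 5 it was 1.69 (edgeR, adjusted p = 0.00313).

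The neonatal heavy chain had about the same pattern. *Myh8* ranged from 84.9 to 109 CPM (median 101) in Control and from 153 to 876 CPM (median 271) in *FRAIL1* muscles. Again no Control muscle reached the lowest *FRAIL1* muscle, and muscle 5 was the highest. The log2 fold change of *Myh8* was 1.84 (standard error 0.390, edgeR, adjusted p = 0.0227), a 3.59-fold rise, and without *FRAIL1* muscle 5 it was 1.33 (edgeR, adjusted p = 0.0110). The call was a narrow one with respect to the Control muscles: the adjusted p of the edgeR test was 0.0502 without Control muscle 2 and 0.0519 without Control muscle 3.

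*Myl4*, the embryonic light chain, rose as well. It ranged from 24.0 to 34.8 CPM (median 31.7) in Control and from 52.8 to 232 CPM (median 109) in *FRAIL1* muscles. The 2 ranges were separate, and *FRAIL1* muscles 2 and 3 were again the lowest and muscle 5 the highest. The log2 fold change of *Myl4* was 1.88 (standard error 0.310, edgeR, adjusted p = 0.0104), a 3.67-fold rise, and 1.54 without *FRAIL1* muscle 5 (edgeR, adjusted p = 0.00426).

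*Actc1* was the most abundant of the 4 and did not pass the threshold of 0.05 when muscles were compared as independent samples. It ranged from 639 to 1270 CPM (median 716) in Control and from 887 to 3068 CPM (median 1379) in *FRAIL1* muscles. These ranges overlapped, since Control muscle 5 lay above *FRAIL1* muscles 2 and 6. The log2 fold change of *Actc1* was 1.04 (standard error 0.311, edgeR, adjusted p = 0.0646). With the mouse as a block it was 0.93 (standard error 0.154, edgeR, adjusted p = 0.0107), past the threshold. Without *FRAIL1* muscle 5 and with no block it was 0.77 (edgeR, adjusted p = 0.145), and without both muscles numbered 5 it was 0.94 (edgeR, adjusted p = 0.0775). With the block and without both it was also short of the threshold (edgeR, adjusted p = 0.0705). The call for *Actc1* thus depended on the fit.

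**Figure D1:**
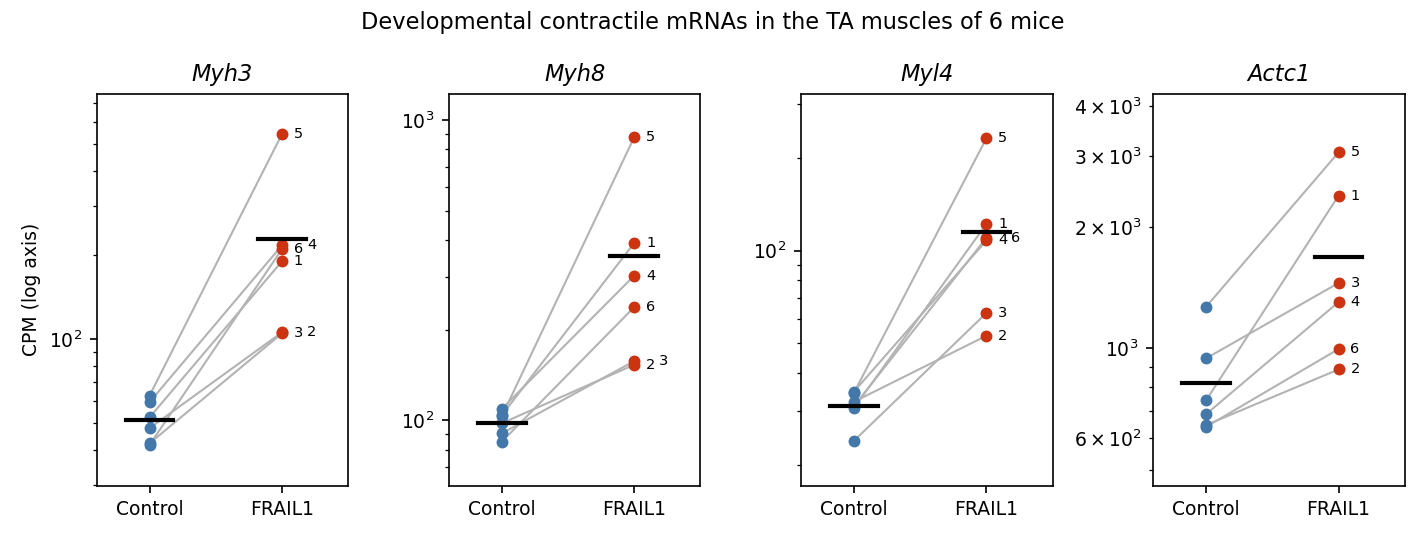
TMM-scaled CPM (log axes, a scale for each gene) of *Myh3*, *Myh8*, *Myl4* and *Actc1* in the 6 Control and 6 *FRAIL1* muscles, with grey lines between muscles of the same number, black bars at group means and numbers naming the *FRAIL1* muscles. Every line rises, the groups are separate for *Myh3*, *Myh8* and *Myl4* but not for *Actc1*, and *FRAIL1* muscle 5 is the highest point in each panel.

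Of the 4 genes, 3 were thus higher past the threshold and none lower. Among all genes tested 6.28% passed, 4.43% higher and 1.85% lower. With the block, all 4 were higher, where 14.1% of all genes tested passed 7.48% higher and 6.62% lower. Without both muscles numbered 5 the same 3 genes were higher, where 5.61% of all genes passed, 3.09% higher and 2.52% lower. Without *FRAIL1* muscle 5 alone they were higher as well, where 6.22% passed, 3.69% higher and 2.52% lower. Groups that did not overlap were seen in 3 of the 4 genes, and in 3.12% of all genes tested in the upward and 1.77% in the downward direction. Ordered by log2 fold change among the 15502 genes, *Myh3* was at place 16, *Myl4* at 29, *Myh8* at 33 and *Actc1* at 261. Since the members and the lists below were chosen with earlier results of these data known, their counts beside all genes are description and not a test.

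Muscles of the same number were taken as the legs of 1 mouse, which puts a change on each animal. *Myh3* was 2.21- to 8.65-fold higher in the *FRAIL1* leg, *Myh8* 1.57- to 8.48-fold, *Myl4* 1.64- to 6.73-fold and *Actc1* 1.37- to 3.22-fold. The *FRAIL1* leg was thus the higher one for each gene in 6 of 6 mice. Mouse 2 had the smallest and mouse 5 the largest change of *Myh3*, *Myh8* and *Myl4*, while the change of *Actc1* was largest in mouse 1. In all 6 mice *Actc1* changed less than each of the other 3 genes, by a mean of 1.002 on the log2 scale against *Myh3*, 0.63 against *Myh8* and 0.78 against *Myl4*. An exact sign-flip permutation test, two-sided over the 6 mice, was run after this was seen. The exact test gave p = 0.0312 for each of these pairs, the smallest it can give, and 0.0625 when adjusted over the 6 pairs of members. With all 6 mice in 1 direction that value is fixed, so it adds nothing to the count of mice. *Myh3* changed more than *Myh8* in 5 of 6 mice, by a mean of 0.37 ± 0.33 (SD), with p = 0.0938 by that exact test.

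The muscles also spread differently within a group. In Control muscles the coefficient of variation was 9.28% for *Myh8*, 12.5% for *Myl4*, 17.1% for *Myh3* and 30.1% for *Actc1*. Across *FRAIL1* muscles it was 51.3% for *Actc1*, 55.8% for *Myl4*, 70.9% for *Myh3* and 76.9% for *Myh8*. Without muscle 5 these values were 42.5%, 34.2%, 33.7% and 40.4%, so the order of the genes in the *FRAIL1* group rested on that muscle. With or without it the coefficient of variation of each gene was higher in *FRAIL1* than in Control muscles, a difference that was not tested.

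The adult heavy chains next to *Myh3* and *Myh8* in the cluster did not rise past the threshold. *Myh4*, the IIb chain of the fastest fibers, ranged from 40802 to 51023 CPM in Control and from 22444 to 40293 CPM in *FRAIL1* muscles, without overlap and lower in the *FRAIL1* leg of 6 of 6 mice. Its log2 fold change was -0.43 (standard error 0.127, edgeR, adjusted p = 0.0548), and it passed in 9 of 24 alternatives, among them the block (edgeR, adjusted p = 0.0328) and the fit without *FRAIL1* muscle 5 (log2 fold change -0.34, edgeR, adjusted p = 0.0283). *Myh1*, the IIx chain, had a log2 fold change of 0.14 (edgeR, adjusted p = 0.269). *Myh2*, the IIa chain, had one of -0.21 (edgeR, adjusted p = 0.862), whose direction turned without Control muscle 6 (0.69), the muscle with the most *Myh2*, and with the block (0.053). *Myh7*, the slow chain, was at 0.39 (edgeR, adjusted p = 0.696) with at most 15.1 CPM in any muscle, and at -0.65 without *FRAIL1* muscle 6. Of the 8 adult and cardiac heavy chains listed, 7 were tested and none passed in either direction, with a median log2 fold change of -0.29 beside 0.0096 over all genes tested. With the block *Myh4* alone passed.

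Per length the cluster covers a wide range of levels. *Myh3* rose from 8.45 ± 1.44 to 37.8 ± 26.8 CPM per kilobase of transcript (mean ± SD, n = 6) and *Myh8* from 15.99 ± 1.48 to 57.4 ± 44.1. *Myh4* stood at 7624 ± 676 in Control and 5665 ± 1138 in *FRAIL1* muscles and *Myh1* at 2534 ± 243 and 2799 ± 195. In every group, then, both developmental chains stayed far below the main adult chains on this scale and above *Myh13*, the extraocular chain, at 2.17 ± 0.372 and 1.78 ± 0.323. *Myh2* lay at 106 ± 121 in Control and 91.2 ± 72.4 in *FRAIL1* muscles. *Myh8* was below *Myh2* on this scale in 6 of 6 Control and 5 of 6 *FRAIL1* muscles, with muscle 5 the exception, but the 2 means differed by less than the SD of *Myh2* in Control and in *FRAIL1* muscles.

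**Figure D2:**
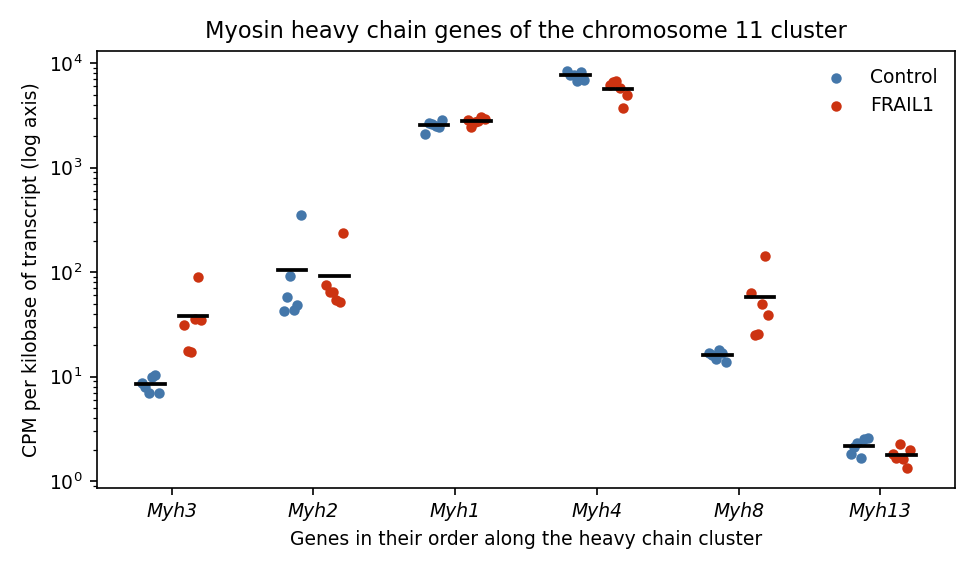
CPM per kilobase of transcript (log axis) of the 6 heavy chain genes in their order along chromosome 11, with a point for each of 6 Control (blue) and 6 *FRAIL1* (red) muscles and bars at the means. The red points of *Myh3* and *Myh8* lie above the blue ones, while those of *Myh4* lie below and those of *Myh2*, *Myh1* and *Myh13* overlap them.

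As shares of their families the developmental isoforms stayed small. Together *Myh3* and *Myh8* made up 0.238% ± 0.0334 (SD, n = 6) of striated heavy chain mRNA per length in Control muscles, within 0.205% and 0.295%. In *FRAIL1* muscles they made up 1.18% ± 1.07, within 0.449% and 3.30%, and the mean without muscle 5 was 0.762%. All *FRAIL1* muscles thus lay above all Control muscles. *Myh3* alone went from a mean of 0.0823% to 0.470% (0.309% without muscle 5) and *Myh8* from 0.156% to 0.714% (0.453% without muscle 5). Over the same muscles *Myh4* went from 74.0% ± 3.78 to 64.9% ± 6.99 (mean 67.2% without muscle 5). *Myh1* went from 24.7% ± 2.93 to 32.8% ± 5.77 (mean 30.8% without muscle 5). Both shares overlapped between the groups. For *Myh4* the lowest Control value was 68.2% and the highest *FRAIL1* value 72.0%. For *Myh1* the highest Control value was 28.1% and the lowest *FRAIL1* value 26.8%. *Myl4* stood at 0.457 ± 0.0707 per 100 of *Myl1*, the adult fast essential light chain, in Control and 1.72 ± 0.983 in *FRAIL1* muscles (mean 1.37 without muscle 5), with no overlap (at most 0.527 and at least 0.795). *Actc1* took 2.26% ± 0.483 of the summed *Actc1* and *Acta1* mRNA in Control and 4.97% ± 2.51 in *FRAIL1* muscles (mean 4.11% without muscle 5). Here the ranges met, with 3.08% as the highest Control and 2.72% as the lowest *FRAIL1* value. These shares are built from the members and were not tested.

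**Figure D3:**
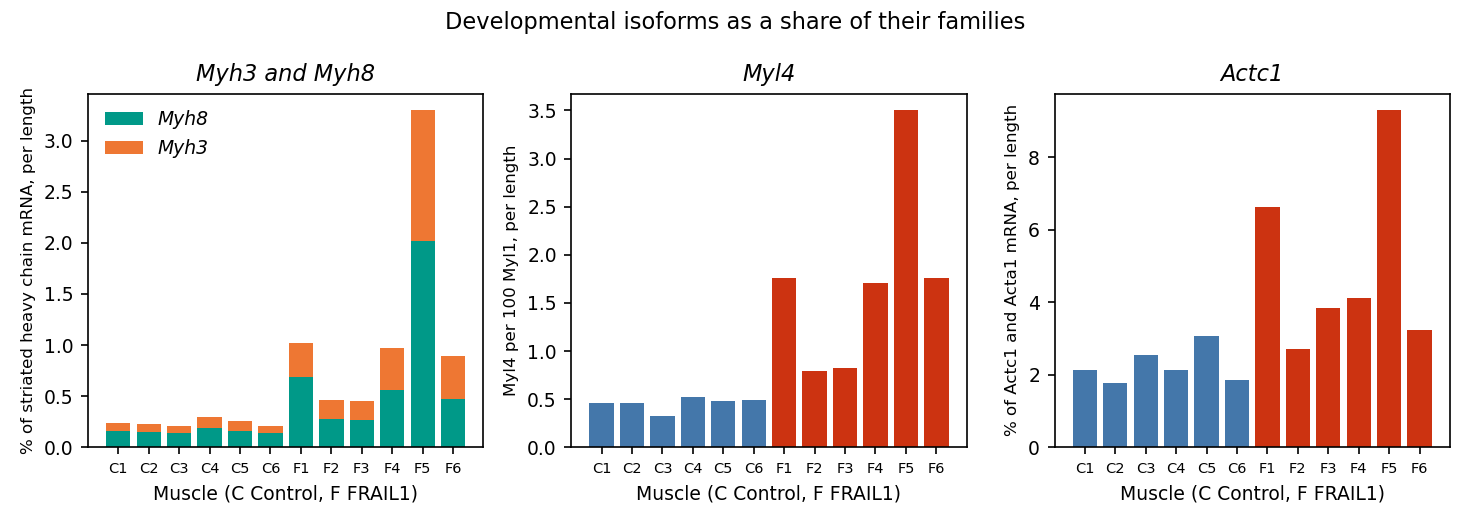
Developmental isoforms per transcript length in each of 12 muscles (C1 to C6 Control, F1 to F6 *FRAIL1*): *Myh3* and *Myh8* as stacked percent of striated heavy chain mRNA (left), *Myl4* per 100 *Myl1* (middle) and *Actc1* as percent of *Actc1* and *Acta1* (right). F5 has the tallest bar in each panel, 3.30%, 3.501 and 9.29%, and only on the right does a Control bar exceed a *FRAIL1* bar.

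The adult partners of *Myl4* and *Actc1* gave no change past the threshold. For *Myl1* the log2 fold change was -0.033 (standard error 0.0723, edgeR, adjusted p = 0.803) and for *Mylpf*, the fast regulatory light chain, it was 0.0048 (standard error 0.0842, edgeR, adjusted p = 0.979), whose sign turned with other size factors. The slow light chains *Myl2* (0.47, edgeR, adjusted p = 0.725) and *Myl3* (-0.49, edgeR, adjusted p = 0.614) varied widely between muscles. Of 11 light chains, 10 were tested and 1 was higher, *Myl6b*, an essential light chain of slow muscle and non-muscle cells, which went from 11.2 ± 1.18 to 28.1 ± 17.1 CPM (log2 fold change 1.33, edgeR, adjusted p = 0.0327). *Myl6b* lost its call in 9 of 24 alternatives. *Acta1* was at 34536 ± 2812 CPM in Control and 31415 ± 2522 CPM in *FRAIL1* muscles (log2 fold change -0.14, standard error 0.0806, edgeR, adjusted p = 0.284), and none of the 5 actins listed beside *Actc1*, *Acta1* among them, passed in either direction.

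Other genes of immature or remodelling fibers were counted in a list of 26. Of these 15 rose, none fell and 11 did not pass, with a median log2 fold change of 0.92 (0.63 without *FRAIL1* muscle 5). The 3 largest rises were *Tnni1*, slow troponin I, which is also used in fetal fibers, at 2.27 (21.7 ± 3.68 to 104 ± 64.8 CPM, edgeR, adjusted p = 0.00817), *Igf2*, the fetal growth factor, at 2.17 (47.9 ± 5.21 to 215 ± 152 CPM, edgeR, adjusted p = 0.0118), and *Chrng*, the fetal γ subunit of the acetylcholine receptor, at 1.88 (3.51 ± 1.14 to 12.9 ± 3.56 CPM, edgeR, adjusted p = 0.00160). For *Igf2*, 64.5% of exon bases overlap other annotated genes, one of them antisense, so its reads may be shared. *Tnnt2*, the cardiac troponin T that is also made in fetal limb muscle, rose from 19.8 ± 3.08 to 61.5 ± 26.8 CPM (log2 fold change 1.64, edgeR, adjusted p = 0.00749). Without both muscles numbered 5, 15 genes of the list were higher and 1 lower.

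Of 15 myogenic regulators and fusion genes 4 rose and none fell, with a median of 0.56. *Mymk* and *Mymx*, which encode the membrane proteins that fuse myoblasts, had log2 fold changes of 1.85 (4.47 ± 0.842 to 16.2 ± 6.60 CPM, edgeR, adjusted p = 0.00265) and 1.76 (0.834 ± 0.245 to 2.83 ± 1.20 CPM, edgeR, adjusted p = 0.00324). *Myog*, the transcription factor of myoblast differentiation, rose from 11.8 ± 2.01 to 32.4 ± 16.1 CPM (1.46, edgeR, adjusted p = 0.0124). *Megf10*, a receptor of satellite cells, was at 1.07 (edgeR, adjusted p = 0.0287). *Myod1*, the determination factor, was at 0.36 and did not pass (edgeR, adjusted p = 0.0725), but passed with the block (edgeR, adjusted p = 0.0107), which took the list to 7 of 15.

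**Figure D4:**
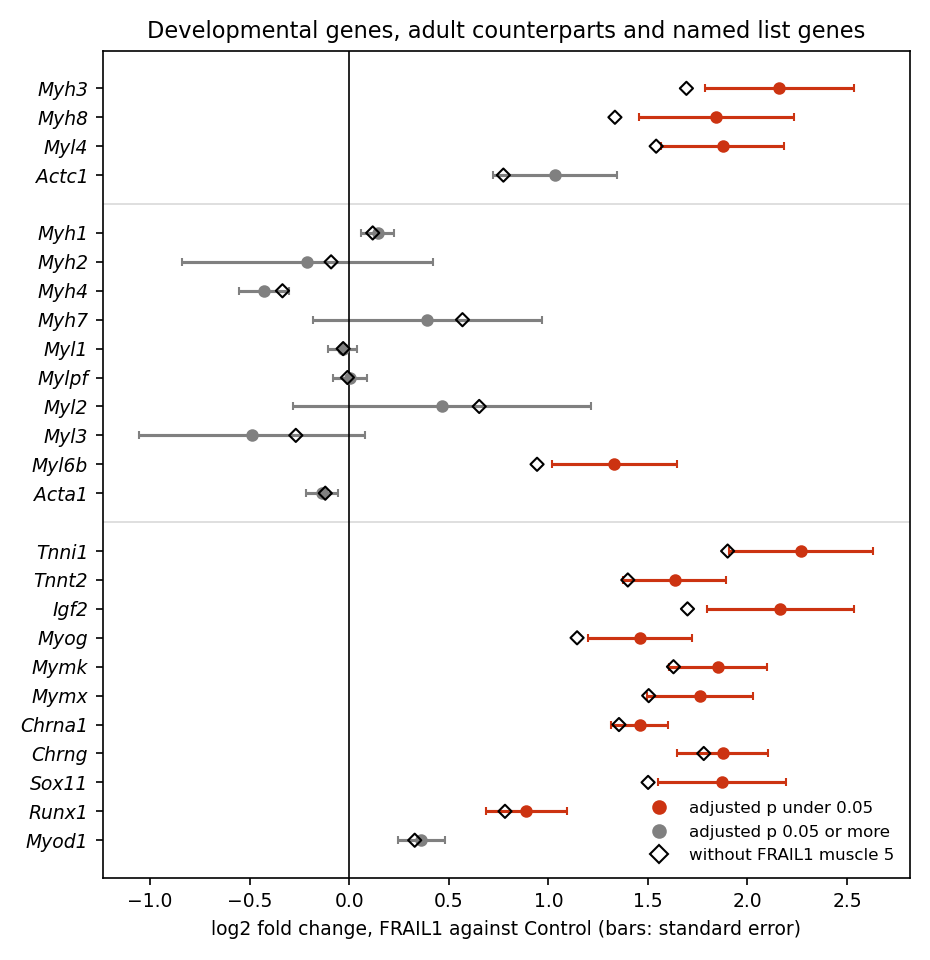
Log2 fold changes, *FRAIL1* against Control, with standard errors, of the developmental genes (top), their adult counterparts (middle) and named genes of the lists (bottom), in red where the adjusted p of the edgeR test was under 0.05, with open diamonds for the value without *FRAIL1* muscle 5. *Myh3*, *Myh8* and *Myl4* lie near 2 among *Tnni1*, *Igf2* and *Chrng*, while the adult counterparts other than *Myl6b* are grey.

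Among 19 genes known to respond to denervation 10 rose and none fell, with a median of 0.66, and 14 had a log2 fold change above 0. With the block 9 were higher and 1, *Cacna1s*, was lower (-0.30, edgeR, adjusted p = 0.0378). The summed CPM of the list was higher in the *FRAIL1* leg of 1 mouse only. *Fbxo32* ranged from 166 to 306 CPM in Control and from 66.4 to 324 CPM in *FRAIL1* muscles. *Trim63* ranged from 237 to 341 and from 138 to 364 CPM. In both genes *FRAIL1* muscle 2 was the highest. *Chrng* (above), *Sox11*, a transcription factor (1.87, 0.857 ± 0.257 to 3.16 ± 1.83 CPM, edgeR, adjusted p = 0.00770), and *Myog* rose most. *Chrna1*, the α subunit of the acetylcholine receptor, rose from 29.5 ± 3.56 to 81.0 ± 19.2 CPM (1.46, edgeR, adjusted p = 0.000339). This list shares genes with the one of immature fibers. By contrast, of 30 genes that regulate contractile isoforms, among them serum response factor and the MEF2, NFAT and TEAD factors, 28 were tested and 1 rose, *Runx1* (0.89, edgeR, adjusted p = 0.0277), which did not pass with the block (edgeR, adjusted p = 0.0678) or without *FRAIL1* muscle 5 (edgeR, adjusted p = 0.0503). With the block 4 of the 28 were lower and none higher, and the median without it was -0.058 (-0.032 without *FRAIL1* muscle 5).

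**Figure D5:**
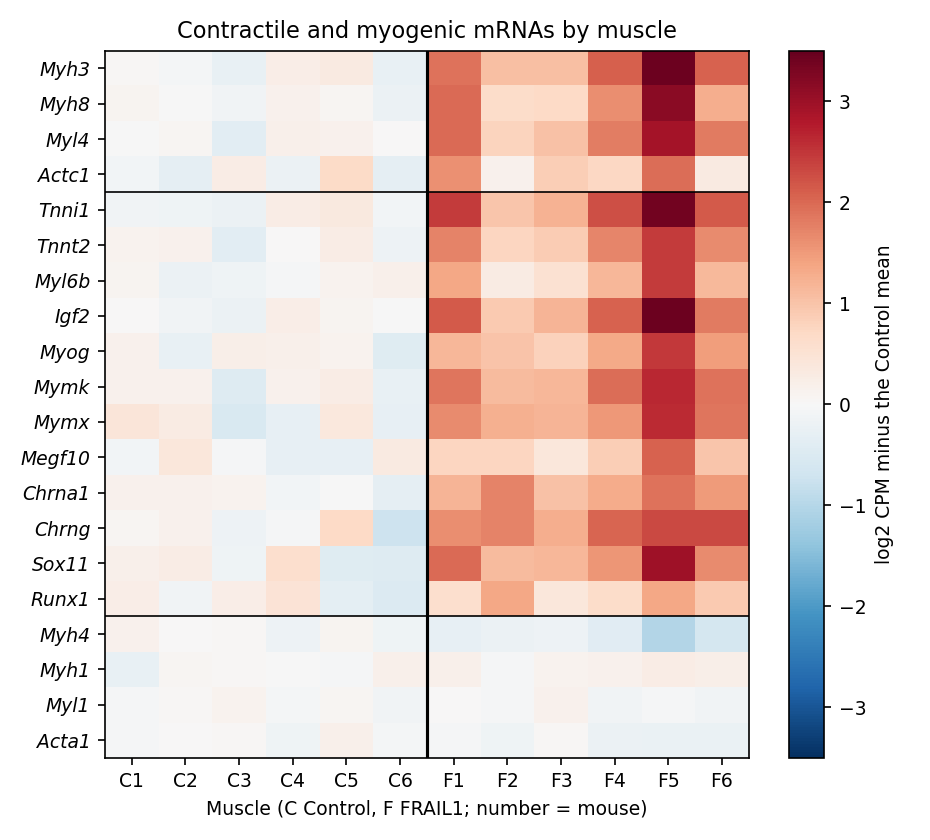
Log2 CPM minus the mean of the Control muscles (color scale) in the 12 muscles for the 4 developmental genes (top), named genes of the lists (middle) and adult contractile genes (bottom). F5 has the deepest red in the top rows, F2 and F3 are the palest *FRAIL1* muscles for *Myh3*, *Myh8* and *Myl4*, and *Myh4* is blue in all *FRAIL1* muscles.

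Markers of other cell types were summed in the same muscles. Satellite cell markers, of which 3 of 10 rose (*Fgfr4* 1.04, *Cxcr4* 0.60 and *Itga7* 0.47 on the log2 scale) and 5 with the block, had a summed level of 210 to 236 CPM in Control and 245 to 372 CPM in *FRAIL1* muscles. Most of this sum was *Itga7* alone, at 143 to 168 CPM in Control and 171 to 263 CPM in *FRAIL1* muscles. Proliferation genes, of which 2 of 14 rose (*Cdk1* 0.85 and *Rrm2* 0.73) and 6 with the block, summed to 70.1 to 83.6 and 77.1 to 137 CPM. Macrophage markers, with none of 10 past the threshold and 6 of 10 higher with the block, summed to 246 to 384 and 311 to 791 CPM. Fibroblast markers summed to 1240 to 2382 and 2456 to 6267 CPM, the last being *FRAIL1* muscle 5, without which the highest was 3128 CPM. Of these 10 markers 2 rose, *Pdgfrl* (1.10) and *Col1a2* (0.82), which did not pass with the block (edgeR, adjusted p = 0.0642) or without *FRAIL1* muscle 5 (0.59, edgeR, adjusted p = 0.0501). Endothelial markers, of which *Tek* (-0.41) and *Vwf* (-0.25) of 8 fell, summed to 428 to 490 and 341 to 432 CPM, and without *FRAIL1* muscle 5 *Vwf* did not pass (-0.20, edgeR, adjusted p = 0.0518). Of the myofiber markers *Ckm*, muscle creatine kinase, fell (-0.38, edgeR, adjusted p = 0.0482), and the other 9 did not pass. Of the 10, 2 were lower with the block and 3 without *FRAIL1* muscle 5, and over the 24 alternatives the number lower ranged from 0 to 6. The part of these cell types in the developmental isoforms was not tested.

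*Myl4*, *Actc1* and *Tnnt2* are also cardiac genes, and other cardiac markers were low. *Myl7*, the atrial regulatory light chain, had no count in any muscle. *Nppa*, *Nppb*, *Mybpc3*, *Nkx2-5* and *Gata4* were too low to be tested. Of the 10 cardiac markers 4 were tested and *Tnnt2* alone passed. None of 7 smooth muscle, 8 Schwann cell and 5 adipocyte markers tested passed in either direction, while with the block 1 Schwann cell and 1 adipocyte marker were lower.

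Last, genes were compared with the members by the Pearson correlation of log2 CPM over the 12 muscles, among 13010 genes with a mean of at least 1 CPM. The muscles share a group difference and *FRAIL1* muscle 5, so these values describe likeness and carry no p. *Myh3* was most like *Ric8a* (r = 0.992), *Igf2*, *Tnni1*, *Hes6* and *Myl4* (0.989), and *Myl4* most like *Tnni1* (0.994), *Igf2*, *Tnnt2*, *Myh3* and *Cdkn2d* (0.986). *Myh8* was most like *Ift122* (0.990), *Nes*, *Igf2*, *Tmem132a* and *Ap1s1* (0.982). *Igf2* was therefore in the first 5 of each of these genes. *Actc1* had another set, *Eef1g* (0.971), *Trim11*, *Dlgap4*, *Psmd13* and *Lrrc14* (0.945), of which *Eef1g*, *Psmd13* and *Lrrc14* did not pass the threshold themselves. Its correlation was 0.816 with *Myh3*, 0.870 with *Myh8* and 0.818 with *Myl4*, while *Myh3* and *Myh8* had 0.975. After the group means were taken out, *Actc1* had 0.635 with *Myh3*, 0.749 with *Myh8* and 0.642 with *Myl4*, and *Myh3* had 0.945 with *Myh8* and 0.959 with *Myl4*. On those deviations *Igf2* stayed in the first 5 of *Myh3*, *Myh8* and *Myl4*, and *Trim11* (0.953), *Wdr1*, *Eef1g*, *Myl6* and *Psmd13* led for *Actc1*.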

How the data were processed

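RNA-seq counts of 12 TA muscles were used, 6 Control and 6 *FRAIL1*, by the groups in the labels. Per the study's methods and processing notes, the authors trimmed polyA-selected paired-end reads with Trimmomatic, mapped them to mm10 with STAR 2.7.8a and counted uniquely mapping reads per gene with featureCounts 2.0.1, and they deposited these raw counts per gene without normalization. The strand setting is not given in the sources used here, so reads of overlapping antisense genes cannot be separated, and unique mapping leaves out reads that near copies share. Of 27179 NCBI Gene IDs, 25275 matched a symbol, and the rest held 0.28% of counts. Total counts per muscle were 44848322 to 60527385. Depth limits mainly genes near the filter, and the error given is the spread between muscles. No pair of libraries in a group was a copy (chi-square per degree of freedom 14.5 or more).

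Genes were filtered with filterByExpr and scaled with TMM, and *FRAIL1* was compared with Control with edgeR 4.0.16 in R 4.3.3 (glmQLFit, robust, and glmQLFTest), with Benjamini-Hochberg adjustment over the 15502 genes tested and a threshold of 0.05. CPM values use TMM library sizes, and log2 CPM a prior count of 2. DESeq2 1.42.0, limma 3.58.1 (voom), other size factors and filters, and leaving out muscles were alternatives. The scripts were tested on simulated data. The design gives each mouse 1 leg of each group, but the labels do not state that a number is a mouse. Muscles of the same number were taken as 1 mouse: their deviations from the group means correlated at 0.254, 0.162, 0.282, 0.263, 0.0547 and 0.185 for numbers 1 to 6. The fit without the block is the main one, since the study states none for its RNA-seq counts. That fit leaves out the pairing of legs, which the study used in its t tests of fiber size. Per-length values divide by the longest annotated transcript. Named genes were the 4 members, their adult counterparts, *Myog*, *Myod1*, *Chrng* and *Chrna1*, and the genes of each list past the threshold (where over 6, the 3 largest rises and the 3 largest falls), and for likeness the first 5 genes by correlation. *Fbxo32*, *Trim63* and *Cacna1s* are named besides, for the denervation list. The members and lists were chosen with earlier results of these data known. Promoter windows came from RefSeq, GRCm38.p6, and coding sequences from GENCODE transcripts of that build.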

Additional observations from a re-analysis of the deposited data

Results flagged for a closer look

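For independent, normally distributed values, chance exceeds Dixon's 95% criterion in about 1 in 20 groups. The 72 groups of 6 muscles checked here hold CPM of genes counted in the same muscles. Their flags are therefore not independent, and that rate does not apply to them. In 18 of these groups, 1 muscle lay farther from the other 5 than the criterion for 6 values allows. *FRAIL1* muscle 5 was that muscle for *Myh3* (541.2 CPM) and *Myh8* (875.7 CPM), as well as for *Igf2* (509.5 CPM), *Myog* (64.11 CPM), *Myl6b* (61.05 CPM), *Fgfr4* (22.32 CPM), *Megf10* (8.619 CPM), *Sox11* (6.712 CPM), *Cdk1* (6.488 CPM), *Mymx* (5.123 CPM), *Pdgfrl* (12.47 CPM) and *Col1a2* (1307 CPM). *Myl4* and *Actc1* were also highest in that muscle but did not exceed the criterion. In muscle 6 some heavy and light chains stood apart, *Myh2* at 2133 CPM in Control and 1448 CPM in *FRAIL1*, *Myh7* at 15.08 CPM and *Myl2* at 5.765 CPM in *FRAIL1*, and *Myl3* at 138.7 CPM in Control. *Tnni1*, slow troponin I, was not highest in muscle 6 of either group, at 19.9 CPM in Control and 94.8 CPM in *FRAIL1*. *Tnnt1*, slow troponin T, was highest in Control muscle 6 (24.1 CPM), but in *FRAIL1* muscle 6 (77.7 CPM) it was below muscle 5 (130 CPM). *Cdk1* in Control muscle 4 was at 2.639 CPM.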

How the results depend on the processing

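*Myh3* and *Myl4* stayed past the threshold in all 24 alternatives, with log2 fold changes of 1.69 to 2.31 and 1.51 to 2.02, and edgeR's, DESeq2's or limma's adjusted p was at most 0.0325 and 0.0287. *Myh8* stayed in 22 of 24, with 1.33 to 1.996 when 1 muscle was left out, and missed it without Control muscle 2 or 3. *Actc1* was higher in all 24 and passed in 6: 0.93 with the replicate block, 1.03 with DESeq2, 0.93 with DESeq2 and the block, 0.83 with limma, 1.04 in the edgeR fit that was not robust, and without *FRAIL1* muscle 2. When 1 muscle was left out it ranged from 0.77 to 1.20. The number of genes past the threshold was 974, and 2186 with the replicate block, 2232 with DESeq2, 2898 with DESeq2 and the block, 1836 with limma, 2305 with the block and without both muscles numbered 5, and 364 (without *FRAIL1* muscle 1) to 2110 (without *FRAIL1* muscle 3) when 1 muscle was left out. Leaving out any 1 muscle but *FRAIL1* muscle 5 (969) moved this number by more than 1.5 times. The share of calls that were higher was 70.5%, and 53.0% with the block. The direction of *Myh2* turned to 0.053 with the block, 0.047 with DESeq2 and the block, 0.20 with limma and 0.042 with the block without both muscles numbered 5 (-0.77 to 0.69 when 1 muscle was left out). *Myh7* turned to -0.13 and -0.19 with the block (edgeR, DESeq2; -0.65 to 0.60 leaving out 1 muscle), and *Myl2* to -0.19 and -0.26 (-0.995 to 0.78). *Mylpf* turned to -0.0024 with DESeq2's size factors, -0.0024 with its test, -0.0039 with its block and -0.012 with limma (-0.030 to 0.050). The cause of these changes was not tested. With the block the call changed for 28 genes of the lists, *Actc1*, *Myh4*, *Myod1*, *Runx1* and *Col1a2* among them: 26 passed with the block and not without it, and 2 without it and not with it. Calls were gained in 9 of 24 alternatives for *Myh4* and in 4 for *Myod1*. They were lost in 4 for *Megf10*, 6 for *Cdk1*, 7 for *Runx1*, 9 each for *Myl6b* and *Fgfr4*, 12 each for *Cxcr4*, *Ckm* and *Vwf* and 13 for *Col1a2*. Depth limits genes near the filter and not the 4 members, whose lowest count was 1162.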
